A study of Homo sapiens with 60 samples.

Results

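Chromosome 6 carries a cluster of histone and tRNA genes followed by the major histocompatibility complex (MHC), and the peaks called there were described across all peak lists of a CUT&RUN study of PC9 cells. A peak belonged to the region if its row lay on chromosome 6 and its midpoint fell between positions 26000000 and 33500000 of GRCh37, whatever its reproducibility, a rule that used position and no measured value. Of the 507516 rows of 24 lists, 4330 met it: 1473 up to position 28400000, called the histone region here, and 2857 beyond it, called the MHC. The rest of chromosomes 1 to 22 and X held 503096 rows, and 90 rows lay elsewhere.

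PC9 is a human lung adenocarcinoma line. Its cells were METTL7A knockouts that overexpress METTL7A with MYC and FLAG tags (Rescue), METTL7A knockouts (KO) or wild type (WT), and each genotype was grown under osimertinib, an EGFR inhibitor raised from 100 nM over 6 to 8 weeks, or left untreated. CUT&RUN releases and sequences the chromatin that an antibody binds, and the antibodies used were against acetylated histone H3 lysine 27 (H3K27Ac), RAD21 and PDS5A, with non-specific IgG as the background control. Every group had 2 samples joined by the authors into 1 list, so a group gives 1 value, and 48 of the 60 samples stand behind the lists; the 12 H2A samples were not used here. The labels do not say whether a knockout line is 1 clone or whether replicates are separate cultures, and the read depth of each sample is unknown. Each replicate gave a peak a −log10 p, at least 3 in every row, and the pair gave a global IDR (irreproducible discovery rate), which is low where the ranks of both replicates agree.

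Histone genes of the clustered kind are transcribed in S phase, when new chromatin needs histones, and tRNA genes are transcribed by RNA polymerase III. The MHC holds the class I and class II genes, whose proteins present peptides to T cells, with the class III genes between them. H3K27Ac marks active promoters and enhancers, RAD21 is the subunit that closes the cohesin ring, and PDS5A binds cohesin and regulates how long it stays on chromatin. RefSeq on assembly GRCh38.p14 lists 55 protein-coding histone genes on chromosome 6, 98 tRNA genes between the first and the last of them (H2AC1 and H2BC17), and 21 protein-coding HLA genes, 15 of class II. That assembly is not the one the lists use, so no gene is read from a coordinate below and no sequence is shown.

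Peaks of all 3 antibodies were several times denser in both regions than over the genome. Per Mb of the histone region, the number of H3K27Ac peaks was 44.2 in treated Rescue cells, 45 in untreated Rescue cells, 33.3 in treated KO cells, 27.9 in untreated KO cells, 55.4 in treated WT cells and 25 in untreated WT cells. Per Mb of the MHC it was 39.8 in treated Rescue cells, 35.3 in untreated Rescue cells, 35.5 in treated KO cells, 23.5 in untreated KO cells, 39.2 in treated WT cells and 23.5 in untreated WT cells. In the rest of the chromosomes it was 14.8 in treated Rescue cells, 12.96 in untreated Rescue cells, 12.9 in treated KO cells, 7.76 in untreated KO cells, 14.5 in treated WT cells and 7.42 in untreated WT cells. Every list was denser in both regions than outside them. Divided by the share of sequence length, the H3K27Ac share of the list was 3.26-fold in the histone region (geometric mean, 2.58 to 3.81 over 6 lists; log2 1.71 ± 0.20, SD) and 2.83-fold in the MHC (2.67 to 3.15; log2 1.499 ± 0.10). For RAD21 this density was 4.08-fold in the histone region (geometric mean, 3.58 to 4.43 over 6 lists; log2 2.03 ± 0.11, SD) and 3.62-fold in the MHC (3.17 to 4.17; log2 1.86 ± 0.13). The PDS5A density was 3.995-fold in the histone region (geometric mean, 2.88 to 4.74 over 6 lists; log2 1.998 ± 0.26, SD) and 4.06-fold in the MHC (3.65 to 4.46; log2 2.02 ± 0.11). All 6 of these values were above 1 in 6 of 6 lists, with a two-sided exact sign-flip permutation p of 0.03125 each, the smallest that 6 lists allow (Benjamini-Hochberg adjusted p = 0.03125). IgG peaks were dense there too, at 2.06 and 3.44 times the share of length over all IgG lists pooled and 2.99 and 4.22 times in treated WT cells. The densities were taken again without every peak that lay on an IgG peak. This leaves in any background too weak to be called in the short IgG lists, so the part of background was not measured. The log2 densities were then 1.74, 2.19 and 2.06 in the histone region and 1.24, 1.68 and 1.92 in the MHC for H3K27Ac, RAD21 and PDS5A, each with the same exact p of 0.03125.

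**Figure D1:**
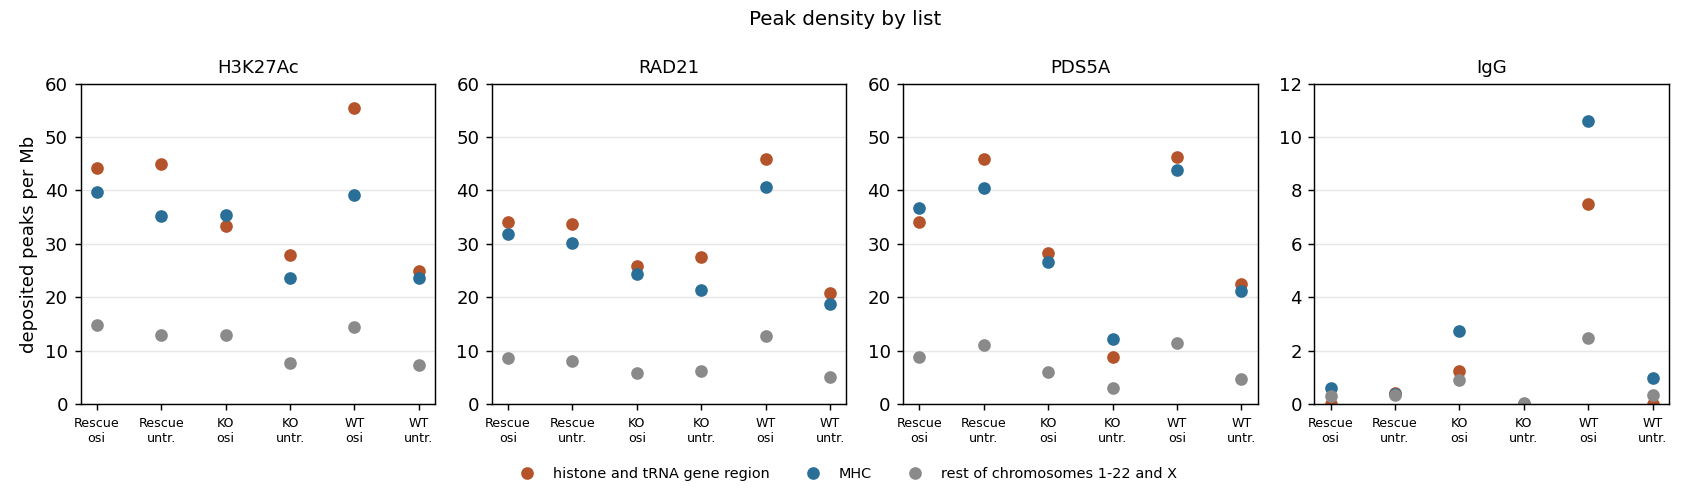
Deposited peaks per Mb (vertical axis) in each of the 24 lists, by antibody (panels, IgG on its own scale), for the histone region, the MHC and the rest of the chromosomes. For H3K27Ac, RAD21 and PDS5A both regions lie above the rest in all 18 lists, and untreated KO cells have the fewest PDS5A peaks.

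No difference in density between the histone region and the MHC passed adjustment. RAD21 peaks were denser in the histone region than in the MHC in 6 of 6 lists, by a log2 difference of 0.17 ± 0.099 (SD), with an exact sign-flip permutation p of 0.03125 that did not pass adjustment over 3 antibodies (adjusted p = 0.0938). The difference was 0.21 ± 0.21 for H3K27Ac (5 of 6 lists, exact adjusted p = 0.141) and -0.024 ± 0.24 for PDS5A (4 of 6 lists, exact adjusted p = 0.875). H3K27Ac peaks were wider than elsewhere in the MHC and narrower in the histone region in every list, which did not pass adjustment either. The median H3K27Ac peak was 1075 to 1276 bp wide in the MHC over the 6 lists, against 964 to 1096 bp in the rest of the chromosomes, and was wider in 6 of 6 lists (log2 ratio 0.19 ± 0.055). In the histone region it was 713 to 991 bp and narrower than in the rest in 6 of 6 lists (log2 ratio -0.21 ± 0.12). Both had an exact sign-flip permutation p of 0.03125 and an adjusted p of 0.0938 over 6 tests. RAD21 and PDS5A peaks had no adjusted p under 0.125. They were wider in 1 and 3 of 6 lists in the histone region and in 1 and 4 of 6 in the MHC.

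Peaks gathered in a few stretches. In windows of 500 kb, H3K27Ac had most peaks at 26 to 26.5 Mb and at 30.5 to 31 Mb, with 226 and 226 rows over its 6 lists. Nearly as many, 224, lay at 31.5 to 32 Mb. The first window held 43 in treated Rescue cells, 42 in untreated Rescue cells, 31 in treated KO cells, 29 in untreated KO cells, 53 in treated WT cells and 28 in untreated WT cells. RAD21 had most at 31.5 to 32 Mb (174) and 30.5 to 31 Mb (155), and PDS5A at the same windows (168 and 162). At the other extreme, 29 to 29.5 Mb, a window picked after its values were seen, held no H3K27Ac or IgG row, 1 RAD21 row and 2 PDS5A rows in all lists together. The longest stretch free of any row, chr6:29040426-29556983, took up most of it and ran for 517 kb, and the next longest, chr6:32383977-32590064, for 206 kb.

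**Figure D2:**
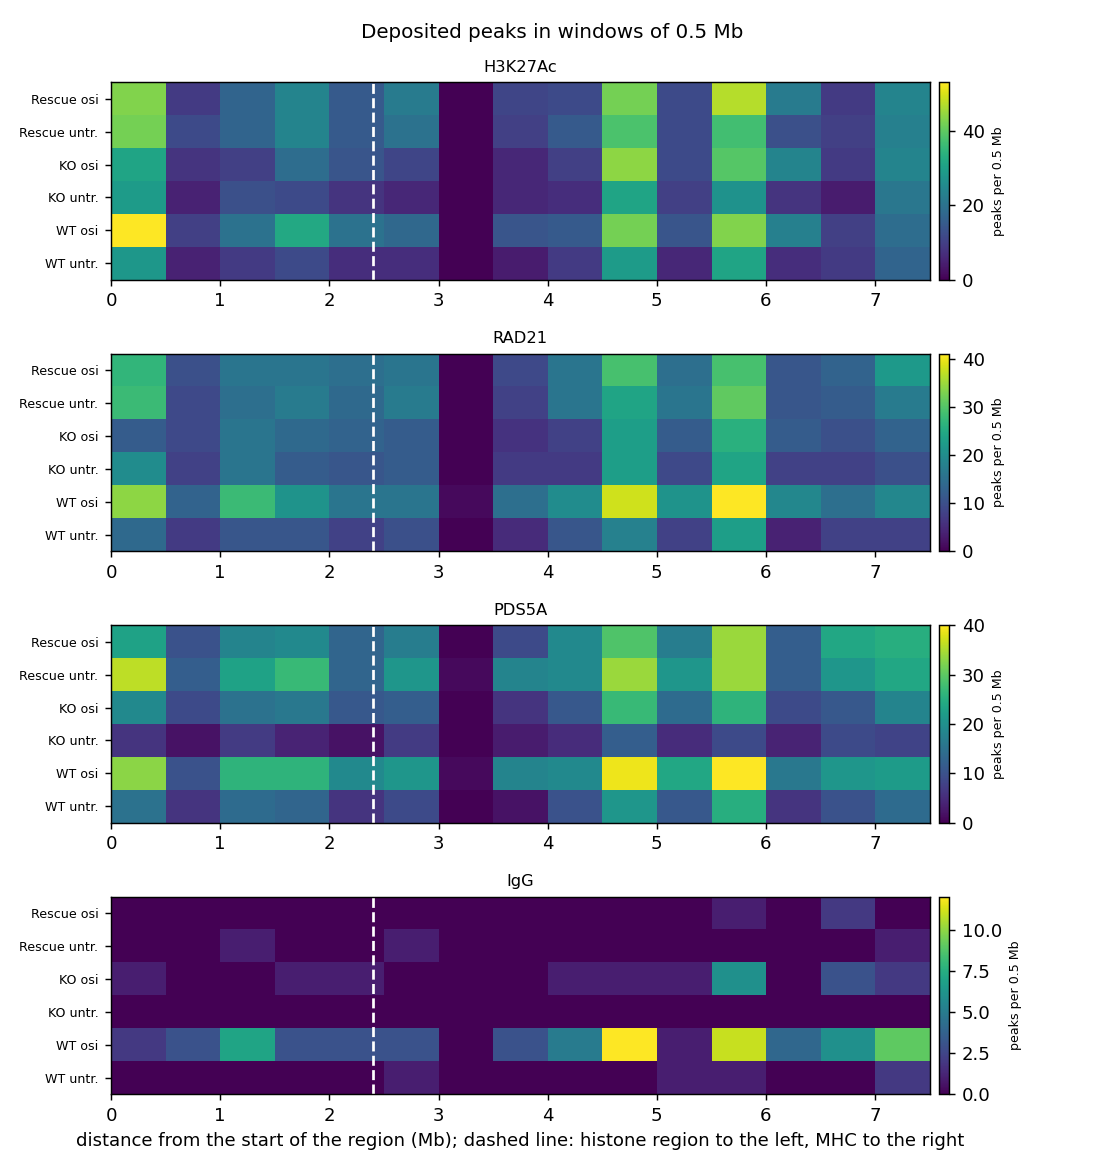
Number of deposited peaks in windows of 0.5 Mb (colour, one scale per antibody) along the distance from the start of the region (horizontal axis, Mb), one row per list; the dashed line parts the histone region from the MHC and crosses one window. The window 3 to 3.5 Mb from the start is empty of H3K27Ac peaks in all 6 lists, and 72 of the 100 IgG peaks lie in the treated WT row.

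Merging rows that overlapped by 1 bp or more over all 24 lists gave 505 loci, 164 in the histone region and 341 in the MHC. More of them carried all 3 antibodies than elsewhere: 85 loci (51.8%, Wilson 95% interval 44.2 to 59.3) in the histone region and 145 (42.5%, 37.4 to 47.8) in the MHC, against 25.7% of 87385 loci in the rest. H3K27Ac stood alone at 36 (21.95%) and 92 (26.98%), against 43.1% in the rest. Intervals cover counting error only, since loci share lists. Cohesin without the acetyl mark, that is RAD21 and PDS5A but no H3K27Ac in any list, was found at 19 (11.6%) and 54 (15.8%), close to the 13.7% of the rest. PDS5A alone was at 5 and 29 loci (3.05% and 8.504%, against 5.68%), and RAD21 alone at 5 and 8. An IgG row lay at 20 (12.2%) and 62 (18.2%), against 9.74% in the rest, and no locus of the region had IgG rows in 4 or more lists. Such loci were rare in the rest too. Of 9243 loci merged there over the IgG lists alone, 2.36%, 0.595% and 0.206% were in 4, 5 and 6 lists.

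**Figure D3:**
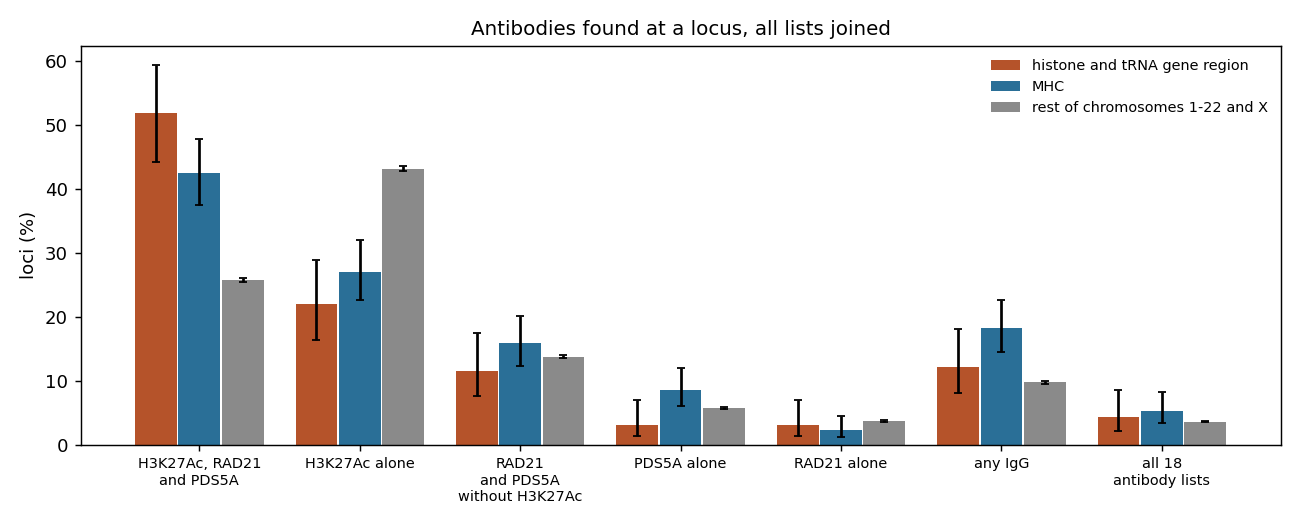
Percentage of merged loci (vertical axis) that carry each combination of antibodies in any of the 24 lists, for the histone region (164 loci), the MHC (341) and the rest of the chromosomes; bars are Wilson 95% intervals for counting error. Loci with all 3 antibodies make up 51.8% and 42.5% in the regions and 25.7% elsewhere.

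Fewer loci of the region than elsewhere were seen in a single list. With rows merged within 1 antibody, H3K27Ac had 38 of 141 histone-region loci and 79 of 254 MHC loci in all 6 of its lists (26.95% and 31.1%), beside 19.6% of its loci genome-wide. RAD21 had 31 of 121 histone-region loci and 54 of 227 MHC loci in all 6 of its lists (25.6% and 23.8%), beside 21.9% of its loci genome-wide. PDS5A had 16 of 127 histone-region loci and 45 of 257 MHC loci in all 6 of its lists (12.6% and 17.5%), beside 13.3% of its loci genome-wide. The H3K27Ac share was above its background in both regions. Single-list loci were below their background for all 3 antibodies. For H3K27Ac they were 28.37% of histone-region and 26.8% of MHC loci (40 and 68), beside 43.05% genome-wide. For RAD21 they were 27.3% of histone-region and 27.3% of MHC loci (33 and 62), beside 37.2% genome-wide. For PDS5A they were 22.05% of histone-region and 22.6% of MHC loci (28 and 58), beside 32.8% genome-wide. Of the 40 and 68 single-list H3K27Ac loci of the histone region and the MHC, 29 and 30 belonged to treated WT cells. They made up 20.6% and 11.8% of all H3K27Ac loci there, beside 18.6% genome-wide. They were weak, with a median lower replicate −log10 p of 5.69 in both regions, and 1 in each region had a global IDR of 0.05 or less. RAD21 had 24 and 40 such loci (beside 27.6%) and PDS5A 15 and 28 (beside 17.5%), both below their background shares.

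The strongest sites show what the region holds at its best. For each of H3K27Ac, RAD21 and PDS5A and each region, the 3 loci found in all 6 lists with the highest mean percentile of the lower replicate −log10 p within its list were named, 15 loci in all, lettered A to O along the chromosome. A −log10 p depends on the depth of its library, so sites are ranked by percentile within a list, and differences of the −log10 p values between lists can follow depth.

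Site B, chr6:26520567-26523615, was the strongest H3K27Ac locus of the histone region. Its 2 replicates had −log10 p values of 85.2 and 121 in treated Rescue cells, 49.9 and 69.4 in untreated Rescue cells, 79.6 and 40.1 in treated KO cells, 49.7 and 47.6 in untreated KO cells, 48.8 and 69.5 in treated WT cells, and 67.4 and 66.2 in untreated WT cells. Every list placed it in its top few percent, from the 98.7 to the 99.9 percentile. RAD21 was present there in 6 lists and PDS5A in 5, both far lower, with mean percentiles of 49.7 and 59.7, and treated WT cells had 1 IgG row. Site D, chr6:27439905-27441500, held H3K27Ac at the 79.6 to 97.8 percentile. Its lower replicate value was highest in treated Rescue cells (46.2) and lowest in untreated WT cells (13.5), with a median of 22.7. Site A, chr6:26155515-26160927, was broader, 5413 bp, with H3K27Ac at the 69.5 to 93.5 percentile and rows of all 18 antibody lists but none of IgG.

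In the MHC the strongest H3K27Ac loci were sites J, K and M. Site J, chr6:30293365-30295642, had replicate −log10 p values of 65.3 and 49.3 in treated Rescue cells, 48.3 and 56.1 in untreated Rescue cells, 32.4 and 28.39 in treated KO cells, 28.3 and 29.7 in untreated KO cells, 23.5 and 32.6 in treated WT cells, and 33.1 and 23.5 in untreated WT cells. All 6 lists held it with a global IDR of at most 0.05, and its percentile ran from 94.4 to 98.5. Site K, chr6:31508727-31511109, ran from 90.7 to 99.2, and site M, chr6:31761581-31764371, from 92.9 to 97.6. RAD21 ranked lower in its own lists there, with mean percentiles of 51.1 at J, 27.4 at K and 31.4 at M, and so did PDS5A, with 67.7, 59.7 and 43.9. PDS5A was missing from untreated KO cells at each of these sites and present in the other 5 lists; that list is the shortest of the PDS5A lists, with 9232 rows.

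RAD21 was strongest at site I, chr6:28983595-28985315, in the MHC window next to the empty stretch. Its replicates had RAD21 −log10 p values of 96.6 and 89.96 in treated Rescue cells, 110.1 and 88.5 in untreated Rescue cells, 33.53 and 79.3 in treated KO cells, 72.6 and 50.03 in untreated KO cells, 136 and 91.5 in treated WT cells, and 106 and 39.7 in untreated WT cells. No list placed it below the 98.2 percentile, although the smaller of the 2 replicate values was lower in both KO lists and in untreated WT cells than in the other 3 lists. PDS5A at the same site had 78.1 and 29.9 in treated Rescue cells, 84.8 and 53.8 in untreated Rescue cells, 22.1 and 42.3 in treated KO cells, 11.8 and 21.1 in untreated KO cells, 46.1 and 65.9 in treated WT cells, and 22.3 and 31.2 in untreated WT cells, from the 87.9 to the 97.2 percentile. H3K27Ac was nearly absent, with a weak row in untreated Rescue and in treated WT cells only (−log10 p of 5.16 and 6.37 in the lower replicate), and no IgG list had a row. Site F, chr6:27759016-27761765, was the strongest RAD21 locus of the histone region, with replicate values of 81.8 and 61.5 in treated Rescue cells, 108 and 96.8 in untreated Rescue cells, 25.8 and 42.5 in treated KO cells, 46.2 and 36.4 in untreated KO cells, 80.7 and 74.6 in treated WT cells, and 72.3 and 14.00 in untreated WT cells. It was also among the top PDS5A loci (81.8 to 98.8 percentile), and its 4 H3K27Ac rows all missed the IDR limit. Site G, chr6:28321060-28325066, also joined the subunits, with RAD21 at the 85.2 to 96.99 and PDS5A at the 79.3 to 97.1 percentile and no IgG row.

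Not every cohesin site carried both subunits equally. Site C, chr6:27155652-27157199, was the strongest PDS5A locus of the histone region. Its PDS5A replicates had −log10 p values of 114 and 49.9 in treated Rescue cells, 119.5 and 105 in untreated Rescue cells, 24.9 and 37.2 in treated KO cells, 30.1 and 40.2 in untreated KO cells, 64.4 and 43.6 in treated WT cells, and 28.3 and 63.3 in untreated WT cells. All 6 lists held it with a global IDR of at most 0.05 and at or above the 96.4 percentile, untreated KO cells included. RAD21 there ranged from the 24.2 to the 95.5 percentile, lowest in treated Rescue cells, where its replicates gave 29.8 and 6.24. In the MHC, site O, chr6:33215726-33218809, had PDS5A values of 158 and 84.1 in treated Rescue cells, 126 and 129.7 in untreated Rescue cells, 30.96 and 50.6 in treated KO cells, 28.2 and 76.6 in untreated KO cells, 98.3 and 99.2 in treated WT cells, and 22.3 and 46.9 in untreated WT cells. PDS5A stood at the 95.8 to 99.7 percentile in every list, while RAD21 was in 5 lists with a mean percentile of 54.8. Site N, chr6:32804836-32807423, had PDS5A at the 91.8 to 99.4 and RAD21 at the 64.1 to 91.6 percentile. Site L, chr6:31696390-31698814, ranked high for all 3 antibodies, with mean percentiles of 81.7 for H3K27Ac, 97.6 for RAD21 and 88.2 for PDS5A. Sites E, chr6:27486004-27487560, and H, chr6:28804743-28807431, were RAD21 sites with weaker PDS5A (mean percentiles of 94.8 and 45.00 at E, 93.9 and 70.2 at H).

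**Figure D4:**
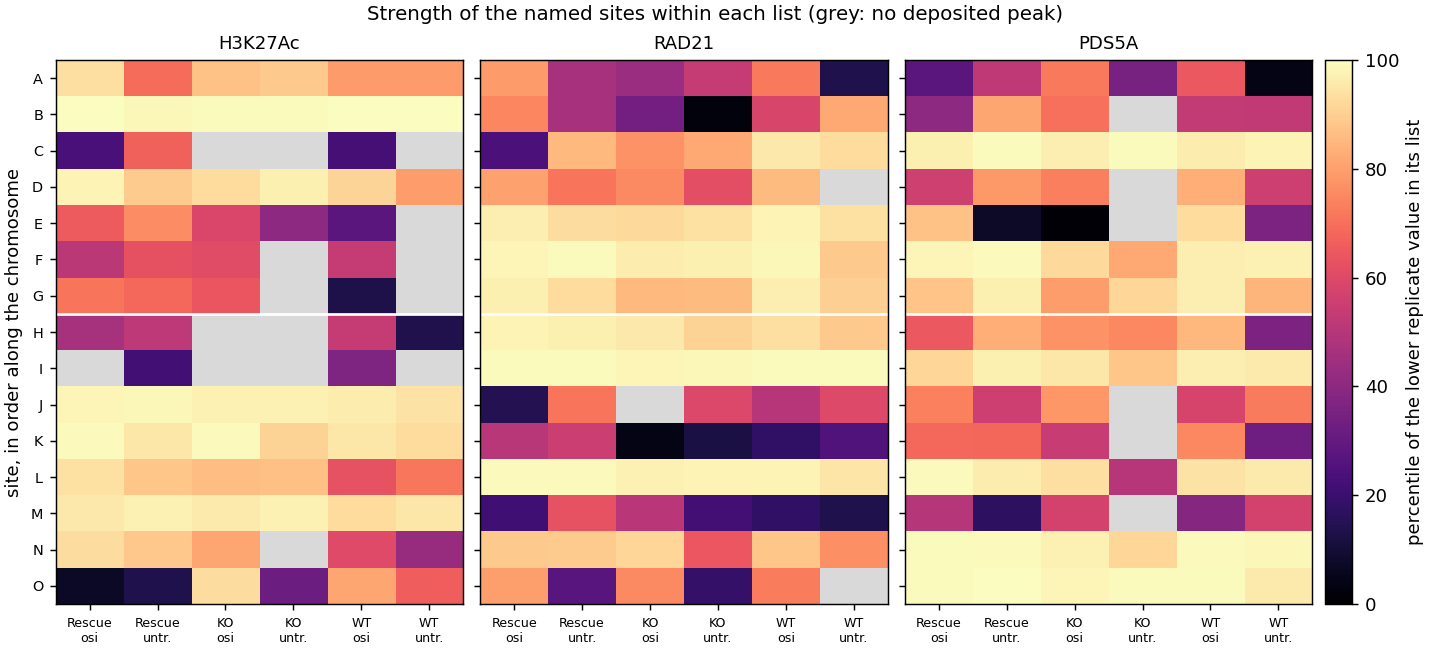
Percentile of the lower replicate −log10 p within its list (colour, 0 to 100) at the 15 named sites (rows A to O along the chromosome, the white line parting histone region and MHC) in the 18 lists of H3K27Ac, RAD21 and PDS5A; grey marks a list with no row. Over the 6 lists H3K27Ac lies between the 98.7 and 99.9 percentile at site B, RAD21 between 98.2 and 99.3 at site I, and PDS5A at 95.8 or more at sites C and O.

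No locus had rows in more than 20 of the 24 lists, and 6 reached that number. The 2 in the histone region were chr6:27218165-27220107 and chr6:27859738-27864111, and the 4 in the MHC were chr6:30522819-30525743, chr6:31669437-31671647, chr6:32820021-32822880 and chr6:32934553-32942028. All 6 had IgG rows, in 2 lists each and in 3 at the last. The widest loci were chr6:32046299-32055954 in the MHC (9656 bp) and chr6:26121820-26128029 in the histone region (6210 bp). All 18 antibody lists met at 7 histone-region and 18 MHC loci, 4.27% and 5.28% of the loci, against 3.60% in the rest. Of these, 5 and 15 also had an IgG row. The share of such loci with an IgG row in the rest is not given, so this is not read as a trait of the region.

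The share of peaks that passed the IDR limit lay above that of the rest for H3K27Ac and below it for cohesin in most lists. Of the H3K27Ac peaks of the histone region and the MHC, those with a global IDR of at most 0.05 were 41 of 106 and 76 of 203 in treated Rescue cells (whole list 29.3%), 50 of 108 and 87 of 180 in untreated Rescue cells (whole list 36.6%), 18 of 80 and 51 of 181 in treated KO cells (whole list 21.7%), 12 of 67 and 33 of 120 in untreated KO cells (whole list 23.2%), 30 of 133 and 63 of 200 in treated WT cells (whole list 23.1%), and 15 of 60 and 26 of 120 in untreated WT cells (whole list 22.6%). The share was higher in the MHC than in the rest of the chromosomes in 5 of 6 lists, by 6.39 percentage points on average (SD 4.35), and by 2.78 points in the histone region (4 of 6 lists). For RAD21 they were 31 of 82 and 60 of 162 in treated Rescue cells (whole list 42.2%), 24 of 81 and 50 of 154 in untreated Rescue cells (whole list 37.2%), 9 of 62 and 18 of 124 in treated KO cells (whole list 24.7%), 15 of 66 and 21 of 109 in untreated KO cells (whole list 28.2%), 40 of 110 and 91 of 207 in treated WT cells (whole list 42.9%), and 7 of 50 and 17 of 96 in untreated WT cells (whole list 23.8%). Here the share was lower than in the rest in 6 of 6 lists in the histone region, with a mean difference of -7.39 points (25.8% against 33.2%), and in 5 of 6 in the MHC, with -5.74 points. For PDS5A they were 23 of 82 and 77 of 187 in treated Rescue cells (whole list 42.2%), 36 of 110 and 93 of 206 in untreated Rescue cells (whole list 41.8%), 10 of 68 and 24 of 136 in treated KO cells (whole list 22.3%), 1 of 21 and 3 of 62 in untreated KO cells (whole list 9.87%), 32 of 111 and 88 of 224 in treated WT cells (whole list 36.1%), and 3 of 54 and 8 of 108 in untreated WT cells (whole list 12.2%). It was again lower in the histone region in 6 of 6 lists, with -8.35 points, and differed by -1.54 points in the MHC (higher in 2 of 6 lists). None of the 6 differences passed adjustment: the exact sign-flip permutation p was 0.03125 for RAD21 and for PDS5A in the histone region, and the lowest adjusted p was 0.0938.

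Within the same cells and with all rows kept, H3K27Ac peaks of the region lay on cohesin peaks more often than elsewhere in nearly every list. No comparison passed adjustment. On average over 6 lists, 59.5% of H3K27Ac peaks in the histone region (SD 6.85) and 55.2% in the MHC (SD 6.37) overlapped a RAD21 peak, against 41.2% in the rest, and both were above the rest in 6 of 6 lists. On PDS5A peaks the values were 58.4% and 55.4%, against 34.9%, above the rest in 5 and 6 of 6 lists. The exception was untreated KO cells, whose short PDS5A list overlapped 17.9% of histone-region H3K27Ac peaks. With peaks on an IgG peak left out, the MHC value on RAD21 fell below that 41.2%. The MHC value on PDS5A fell too and stayed above 34.9%. No value of the rest without such peaks is given, so the excess in the MHC is shown only for all rows. The other way round, 74.1% and 68.96% of RAD21 peaks lay on H3K27Ac, against 63.5%, and 72.1% and 63.8% of PDS5A peaks did, against 57.9%. Between the cohesin subunits, 76.4% of PDS5A peaks in the histone region and 72.2% in the MHC lay on RAD21, against 75.4% in the rest. RAD21 peaks lay on PDS5A at 74.04% in the histone region and 77.7% in the MHC, against 70.98% in the rest, and were above the rest in 5 and 6 of 6 lists. IgG overlap in the histone region was lower than in the rest in 6 of 6 lists for each antibody (3.03%, 3.74% and 3.74% for H3K27Ac, RAD21 and PDS5A, against 4.92%, 7.27% and 7.36%). Treated Rescue, untreated KO and untreated WT cells had no IgG row in the histone region, so their lower overlap was fixed in advance. No lower background is read from this comparison. In the MHC the mean IgG overlap was 6.36%, 6.74% and 6.402% for H3K27Ac, RAD21 and PDS5A. It was above the rest in 2, 1 and 1 of 6 lists. In treated WT cells the MHC overlap was above the rest for each antibody. It was 24.5% against 14.98% for H3K27Ac, 23.67% against 17.48% for RAD21 and 22.77% against 19.25% for PDS5A. With 18 such comparisons no exact sign-flip permutation p fell below 0.03125, and the lowest adjusted p was 0.0625, so none passed.

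Under osimertinib no test of the share of the list passed, and in WT cells both the region and the whole list held more peaks. In WT cells the MHC held 200 H3K27Ac, 207 RAD21 and 224 PDS5A peaks when treated, against 120, 96 and 108 when untreated, and the histone region 133, 110 and 111, against 60, 50 and 54. Their whole lists were longer too, with 44124, 38829 and 34781 rows when treated, against 22625, 15525 and 14395 when untreated. The IgG list of WT cells was also longer when treated, with 7612 rows against 1057. It held 54 against 5 in the MHC and 18 against 0 in the histone region. The IgG list was longer when treated in KO cells (2703 against 167 rows) and shorter in Rescue cells (896 against 1051). How much of the rise in WT cells was background was not tested. In KO cells the MHC held 181 H3K27Ac, 124 RAD21 and 136 PDS5A peaks when treated, against 120, 109 and 62 when untreated, and in Rescue cells 203, 162 and 187, against 180, 154 and 206. In KO cells the histone region held 80 H3K27Ac, 62 RAD21 and 68 PDS5A peaks when treated, against 67, 66 and 21 untreated, and in Rescue cells 106, 82 and 82, against 108, 81 and 110. As a share of the list, the mean log2 ratio over the 3 genotypes was -0.17 ± 0.33 for H3K27Ac, -0.082 ± 0.10 for RAD21, 0.12 ± 0.51 for PDS5A in the histone region (SD, n = 3; two-sided exact sign-flip permutation). In the MHC it was -0.13 ± 0.10 for H3K27Ac, 0.019 ± 0.25 for RAD21, 0.029 ± 0.22 for PDS5A. The H3K27Ac share of the MHC was lower under treatment in 3 of 3 genotypes, and every other measure was split between genotypes. No exact p was below 0.25, the smallest that 3 genotypes allow, so this design cannot pass 0.05 (all adjusted p = 1). The widest split was PDS5A in the histone region, at 0.70 in KO cells, where the untreated list held 21 rows there, against -0.12 in Rescue and -0.23 in WT cells; without KO cells the mean turned negative. Without KO cells the mean for RAD21 in the MHC turned negative too, as did that for PDS5A in the MHC without KO or without Rescue cells.

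**Figure D5:**
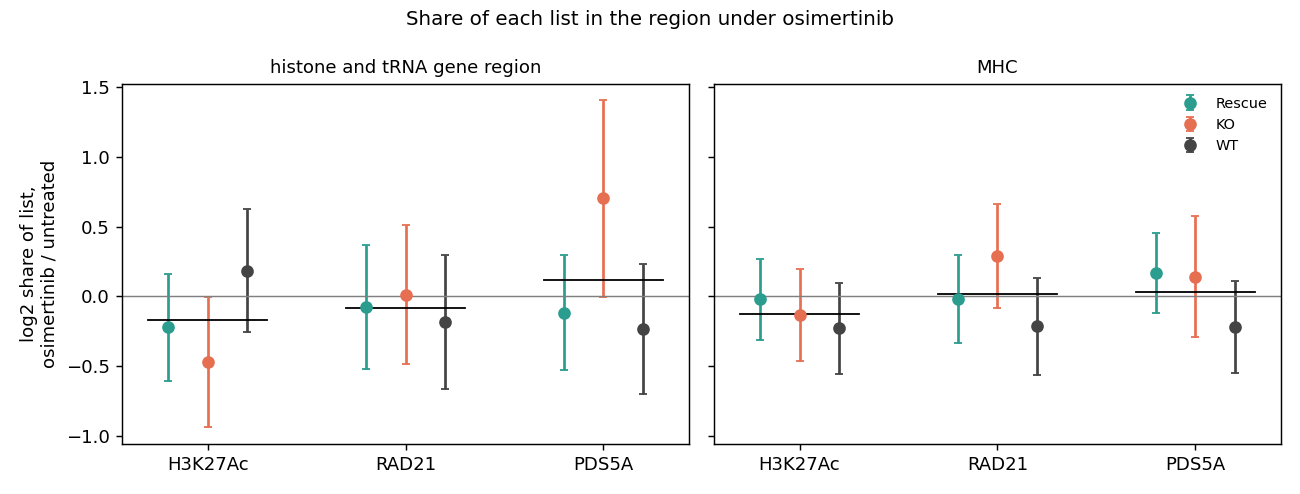
Log2 ratio of the share of a list in the region, treated over untreated (vertical axis), for each antibody and genotype in the histone region (left) and the MHC (right); points are genotypes with 95% counting intervals and black lines their means. Most intervals cross 0, and the KO points for H3K27Ac (−0.47) and PDS5A (0.70) in the histone region lie farthest from it.

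Peak by peak, a counterpart is a row of the other list that overlaps by 1 bp or more, and a row without one says only that no row of the other list lay there. For H3K27Ac, 6 of 106 histone-region and 41 of 203 MHC peaks of treated Rescue cells had none in untreated Rescue cells (whole list 28.37%). In turn, 18 of 108 and 21 of 180 peaks of untreated Rescue cells had none in treated Rescue cells (whole list 21.3%). In both directions the shares of the histone region and of the MHC were below those of the whole lists. The counting interval of the untreated histone-region share (10.8 to 24.8%) held the whole-list value. Among KO lists of H3K27Ac, 27 of 80 histone-region and 77 of 181 MHC peaks of treated KO cells had none in untreated KO cells (whole list 50.9%). The other way, 10 of 67 and 11 of 120 peaks of untreated KO cells had none in treated KO cells (whole list 14.9%). Treated KO cells again had a smaller share of such peaks in both regions than in the whole list. Among WT lists of H3K27Ac, 79 of 133 histone-region and 93 of 200 MHC peaks of treated WT cells had none in untreated WT cells (whole list 57.7%). Conversely, 2 of 60 and 7 of 120 peaks of untreated WT cells had none in treated WT cells (whole list 15.7%). Nearly all H3K27Ac peaks of untreated WT cells in the region thus had a treated counterpart, more often than in the list as a whole. For RAD21, 10 of 82 histone-region and 35 of 162 MHC peaks of treated Rescue cells had none in untreated Rescue cells (whole list 24.5%). In turn, 12 of 81 and 24 of 154 peaks of untreated Rescue cells had none in treated Rescue cells (whole list 19.1%). All 4 shares were below those of the whole lists. Among KO lists of RAD21, 11 of 62 histone-region and 37 of 124 MHC peaks of treated KO cells had none in untreated KO cells (whole list 22.7%). The other way, 19 of 66 and 22 of 109 peaks of untreated KO cells had none in treated KO cells (whole list 28.3%). Treated KO cells had a larger share of such peaks in the MHC than in the whole list, but its counting interval (22.5 to 38.4%) held the whole-list share. Among WT lists of RAD21, 64 of 110 histone-region and 121 of 207 MHC peaks of treated WT cells had none in untreated WT cells (whole list 63.6%). Conversely, 3 of 50 and 5 of 96 peaks of untreated WT cells had none in treated WT cells (whole list 7.68%). The share in the region was below that of the whole list in 10 of these 12 RAD21 cases, both exceptions being in KO cells. For PDS5A, 6 of 82 histone-region and 25 of 187 MHC peaks of treated Rescue cells had none in untreated Rescue cells (whole list 12.6%). In turn, 31 of 110 and 48 of 206 peaks of untreated Rescue cells had none in treated Rescue cells (whole list 28.84%). Rescue cells had more such peaks untreated than treated, in the region as in the whole list. Among KO lists of PDS5A, 49 of 68 histone-region and 85 of 136 MHC peaks of treated KO cells had none in untreated KO cells (whole list 59.1%). The other way, 2 of 21 and 10 of 62 peaks of untreated KO cells had none in treated KO cells (whole list 18.8%). The share for treated KO cells in the histone region was above that of the whole list. Among WT lists of PDS5A, 58 of 111 histone-region and 122 of 224 MHC peaks of treated WT cells had none in untreated WT cells (whole list 62.5%). Conversely, 3 of 54 and 2 of 108 peaks of untreated WT cells had none in treated WT cells (whole list 7.27%). Treated KO and WT cells had the most PDS5A peaks with no untreated counterpart, and so did their whole lists.

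Loss of METTL7A, a membrane protein of the endoplasmic reticulum and lipid droplets in the methyltransferase-like family, was compared by values alone, since each group gives 1 list with no replicate check. Among treated cells the histone region took 0.204% of the KO H3K27Ac list (80 peaks), against 0.301% of the WT list (133 peaks), a log2 ratio of -0.56 with a 95% counting interval of -0.96 to -0.16. Neither the MHC (0.027, -0.26 to 0.32) nor untreated cells (0.093, -0.41 to 0.60) had an interval clear of 0, and whether these differ from the treated histone value was not tested. For RAD21 the MHC took 0.701% of the treated KO list (124 peaks), against 0.533% of the treated WT list (207 peaks), a log2 ratio of 0.40 (0.074 to 0.72), and -0.11 (-0.50 to 0.29) among untreated cells. The mean over both treatments was 0.14, and among peaks that passed the IDR limit -0.32. The PDS5A share of the histone region was 0.227% in untreated KO cells (21 peaks), against 0.375% in untreated WT cells (54 peaks), with an interval of -1.45 to 0.0055 on the log2 scale. Peak by peak for H3K27Ac, 6 of 80 histone-region and 39 of 181 MHC peaks of treated KO cells had none in treated WT cells (whole list 33.04%). In turn, 62 of 133 and 59 of 200 peaks of treated WT cells had none in treated KO cells (whole list 41.7%). The H3K27Ac peaks of treated KO cells in the histone region were thus nearly all shared with treated WT cells. Without treatment and for H3K27Ac, 19 of 67 histone-region and 26 of 120 MHC peaks of untreated KO cells had none in untreated WT cells (whole list 28.2%). The other way, 13 of 60 and 24 of 120 peaks of untreated WT cells had none in untreated KO cells (whole list 26.5%). The shares of the 2 directions lay closer to each other among untreated than among treated cells, in both regions as in the whole lists. Under treatment and for RAD21, 2 of 62 histone-region and 5 of 124 MHC peaks of treated KO cells had none in treated WT cells (whole list 7.07%). Conversely, 53 of 110 and 91 of 207 peaks of treated WT cells had none in treated KO cells (whole list 58.6%). Treated WT cells held almost every RAD21 peak of treated KO cells, in the region as in the whole list. Without treatment and for RAD21, 30 of 66 histone-region and 43 of 109 MHC peaks of untreated KO cells had none in untreated WT cells (whole list 34.99%). In turn, 13 of 50 and 30 of 96 peaks of untreated WT cells had none in untreated KO cells (whole list 21.1%). Untreated KO cells had a larger share of such RAD21 peaks in both regions than in the whole list. The counting intervals, 34.0 to 57.4% and 30.8 to 48.8%, held the whole-list share. Under treatment and for PDS5A, 5 of 68 histone-region and 5 of 136 MHC peaks of treated KO cells had none in treated WT cells (whole list 9.23%). The other way, 46 of 111 and 99 of 224 peaks of treated WT cells had none in treated KO cells (whole list 53.2%). Treated WT cells likewise held nearly all PDS5A peaks of treated KO cells. Without treatment and for PDS5A, 4 of 21 histone-region and 15 of 62 MHC peaks of untreated KO cells had none in untreated WT cells (whole list 25.7%). Conversely, 37 of 54 and 59 of 108 peaks of untreated WT cells had none in untreated KO cells (whole list 52.00%). The shares for untreated WT cells were above that of the whole list in both regions, although the counting interval in the MHC (45.2 to 63.7%) held it.

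Rescue cells were set beside KO cells in the same way. With H3K27Ac and osimertinib, 31 of 106 histone-region and 51 of 203 MHC peaks of treated Rescue cells had none in treated KO cells (whole list 32.6%). In turn, 3 of 80 and 28 of 181 peaks of treated KO cells had none in treated Rescue cells (whole list 20.8%). Few KO peaks of the histone region lacked a Rescue counterpart. With H3K27Ac and no drug, 53 of 108 histone-region and 74 of 180 MHC peaks of untreated Rescue cells had none in untreated KO cells (whole list 52.3%). The other way, 3 of 67 and 9 of 120 peaks of untreated KO cells had none in untreated Rescue cells (whole list 12.9%). The same held among untreated cells. With RAD21 and osimertinib, 28 of 82 histone-region and 53 of 162 MHC peaks of treated Rescue cells had none in treated KO cells (whole list 40.5%). Conversely, 7 of 62 and 11 of 124 peaks of treated KO cells had none in treated Rescue cells (whole list 9.45%). Treated Rescue cells had more RAD21 peaks of their own than treated KO cells. With RAD21 and no drug, 23 of 81 histone-region and 52 of 154 MHC peaks of untreated Rescue cells had none in untreated KO cells (whole list 34.1%). In turn, 8 of 66 and 8 of 109 peaks of untreated KO cells had none in untreated Rescue cells (whole list 13.2%). The share in the region was below that of the whole list in 7 of these 8 RAD21 cases. With PDS5A and osimertinib, 22 of 82 histone-region and 68 of 187 MHC peaks of treated Rescue cells had none in treated KO cells (whole list 40.3%). The other way, 6 of 68 and 11 of 136 peaks of treated KO cells had none in treated Rescue cells (whole list 8.78%). For PDS5A too, treated Rescue cells had more peaks of their own. With PDS5A and no drug, 89 of 110 histone-region and 146 of 206 MHC peaks of untreated Rescue cells had none in untreated KO cells (whole list 73.6%). Conversely, 0 of 21 and 0 of 62 peaks of untreated KO cells had none in untreated Rescue cells (whole list 1.92%). Untreated Rescue cells had 110 and 206 PDS5A peaks in the histone region and the MHC, 5.24 and 3.32 times the 21 and 62 of untreated KO cells, and held a counterpart of every one of these, while the share of the list differed by 0.53 (-0.15 to 1.20) and -0.13 (-0.54 to 0.28) on the log2 scale. The Rescue and WT comparisons share the KO lists.

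Peaks with no counterpart that also had a global IDR of 0.05 or less were far fewer, and their counts are given for the histone region and the MHC together. In each pair of lists given here, the side with the larger share in the region was also the one with the larger share of the whole list, except for RAD21 in Rescue cells. Treated WT cells had 18 of 333 H3K27Ac peaks (beside 5.82% of the whole list), 56 of 317 RAD21 peaks (beside 17.9% of the whole list) and 39 of 335 PDS5A peaks (beside 13.1% of the whole list) that passed this limit and had no counterpart in untreated WT cells. Untreated WT cells had 0 of 180 H3K27Ac peaks (beside 0.499% of the whole list), 0 of 146 RAD21 peaks (beside 0.187% of the whole list) and 0 of 162 PDS5A peaks (beside 0.0764% of the whole list) that treated WT cells lacked. The treated side held the larger share for each antibody in WT cells, in the region as in the whole list. Treated KO cells had 3 of 261 H3K27Ac peaks (beside 1.94% of the whole list), 0 of 186 RAD21 peaks (beside 0.859% of the whole list) and 9 of 204 PDS5A peaks (beside 5.96% of the whole list) that untreated KO cells lacked. Untreated KO cells had 0 of 187 H3K27Ac peaks (beside 0.127% of the whole list), 1 of 175 RAD21 peaks (beside 2.12% of the whole list) and 0 of 83 PDS5A peaks (beside 0.173% of the whole list) that treated KO cells lacked. In KO cells the larger share lay on the treated side for H3K27Ac and PDS5A and on the untreated side for RAD21, again in both. Treated Rescue cells had 1 of 309 H3K27Ac peaks (beside 0.610% of the whole list), 4 of 244 RAD21 peaks (beside 2.25% of the whole list) and 1 of 269 PDS5A peaks (beside 0.541% of the whole list) that untreated Rescue cells lacked. Untreated Rescue cells had 2 of 108 histone-region and 180 MHC H3K27Ac peaks (beside 0.815% of the whole list), 5 of 235 RAD21 peaks (beside 1.81% of the whole list) and 13 of 316 PDS5A peaks (beside 3.56% of the whole list) that treated Rescue cells lacked. For RAD21 in Rescue cells the untreated side had the larger share in the region and the smaller share in the whole list.

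Such peaks were also set side by side between genotypes. Treated KO cells had 0 of 261 H3K27Ac peaks (beside 1.10% of the whole list), 0 of 186 RAD21 peaks (beside 0.221% of the whole list) and 0 of 204 PDS5A peaks (beside 0.229% of the whole list) that treated WT cells lacked. Treated WT cells had 5 of 333 H3K27Ac peaks (beside 3.52% of the whole list), 30 of 317 RAD21 peaks (beside 14.7% of the whole list) and 24 of 335 PDS5A peaks (beside 9.72% of the whole list) that treated KO cells lacked. The treated WT side held the larger share for each antibody, genome-wide as well. Untreated Rescue cells had 19 of 108 histone-region and 180 MHC H3K27Ac peaks (beside 6.85% of the whole list), 11 of 235 RAD21 peaks (beside 4.08% of the whole list) and 69 of 316 PDS5A peaks (beside 21.6% of the whole list) that untreated KO cells lacked. Untreated KO cells had 0 of 187 H3K27Ac peaks (beside 0.0338% of the whole list), 0 of 175 RAD21 peaks (beside 0.352% of the whole list) and 0 of 83 PDS5A peaks (beside 0.0108% of the whole list) that untreated Rescue cells lacked. The top PDS5A peak of untreated Rescue cells among these, chr6:31367300-31367824 in the MHC, had −log10 p values of 46.6 and 53.0 in untreated Rescue cells, and the top one of the histone region, chr6:26595613-26596533, had 42.8 and 24.4. For RAD21 the top peak that untreated Rescue cells had and treated Rescue cells lacked, chr6:27046432-27047047 in the histone region, had 63.6 and 31.4. It overlaps the top histone-region RAD21 peak that treated KO cells had and treated Rescue cells lacked, chr6:27046566-27047091, with 24.3 and 20.8. That site thus held RAD21 in both of those lists and had no row in treated Rescue cells.

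A few loci had rows in Rescue and WT lists and none in KO lists. RAD21 rows lay in both Rescue and both WT lists and in no KO list at 3 histone-region and 2 MHC loci, out of 121 and 227 (2.48% and 0.881%), beside 1.17% genome-wide. For PDS5A there were 4 and 6 (3.15% and 2.33%, beside 2.45%) and for H3K27Ac 1 and 2 (0.709% and 0.787%, beside 0.490%), counts of a few loci near the background. One of them was chr6:31104995-31105887 in the MHC. Its RAD21 replicates had −log10 p values of 50.2 and 33.8 in treated Rescue cells, 48.5 and 22.7 in untreated Rescue cells, 23.1 and 26.2 in treated WT cells, and 37.9 and 9.30 in untreated WT cells. All 4 rows had a global IDR of 0.05 or less, and no H3K27Ac or IgG row lay there. PDS5A at that locus was present in treated KO cells as well, with 40.4 and 32.8 in treated Rescue cells, 27.6 and 19.4 in untreated Rescue cells, 9.85 and 12.96 in treated KO cells, 18.98 and 17.2 in treated WT cells, and 6.45 and 16.9 in untreated WT cells, so there the gap in KO cells was seen for one subunit only. At chr6:31797478-31799162 both subunits followed the pattern. RAD21 had 9.67 and 20.8 in treated Rescue cells, 32.1 and 20.99 in untreated Rescue cells, 28.6 and 14.3 in treated WT cells, and 26.9 and 14.00 in untreated WT cells, and PDS5A 6.56 and 6.95 in treated Rescue cells, 16.8 and 6.53 in untreated Rescue cells, 19.3 and 12.6 in treated WT cells, and 4.65 and 11.6 in untreated WT cells. Of the PDS5A rows only that of treated WT cells passed the IDR limit, against 3 of 4 RAD21 rows. At chr6:30364472-30365639 RAD21 had 29.3 and 28.1 in treated Rescue cells, 26.1 and 10.8 in untreated Rescue cells, and 47.6 and 41.3 in treated WT cells. All of these rows had a global IDR of at most 0.05, and KO and untreated WT cells had no RAD21 row. PDS5A had rows there in 5 lists, KO cells included, so the gap was again seen for RAD21 only. A looser pattern, rows in treated Rescue and treated WT cells and in no KO list, held at 14 and 19 H3K27Ac loci (9.93% and 7.48%, beside 3.75%), at 9 and 20 RAD21 loci (beside 9.15%) and at 13 and 38 PDS5A loci (beside 12.6%). For H3K27Ac both shares were above the background, with counting intervals of 6.01 to 15.98% and 4.84 to 11.4%. The top H3K27Ac peak of the MHC that treated Rescue cells had and treated KO cells lacked was chr6:29894022-29894856, with 18.9 and 15.8.

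Few loci were held by all treated cells and no untreated ones. Rows in all 3 treated lists and no untreated list were found at 0 histone-region and 3 MHC loci for H3K27Ac (beside 1.11%), 0 and 3 for RAD21 (beside 0.883%) and 1 and 2 for PDS5A (beside 0.477%). Among WT cells the peaks that treated cells had and untreated cells lacked included loci of both cohesin subunits. At chr6:30888981-30891188 treated WT cells had PDS5A values of 50.4 and 59.5 and RAD21 values of 75.0 and 35.5, and no other list had a row of either; H3K27Ac had 6.73 and 15.1 there in the same cells. At chr6:32212579-32213478 RAD21 had 47.99 and 17.5 in treated Rescue cells, 76.9 and 8.79 in untreated Rescue cells, 15.4 and 19.4 in treated KO cells, 18.8 and 15.1 in untreated KO cells, and 77.03 and 47.97 in treated WT cells, so untreated WT cells were the one group without a row. PDS5A there had 48.8 and 6.40 in treated Rescue cells, 27.8 and 26.1 in untreated Rescue cells, and 35.1 and 40.3 in treated WT cells, and H3K27Ac and IgG had no row. For H3K27Ac the strongest such peak in the MHC was chr6:32013685-32016517, with 21.9 and 22.7, and in the histone region chr6:26420469-26422479, with 23.5 and 25.4.

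One window of the MHC took a larger share of the H3K27Ac list under treatment in every genotype. At 32 to 32.5 Mb there were 22 H3K27Ac rows in treated Rescue cells, against 13 in untreated Rescue cells, 24 in treated KO cells, against 8 in untreated KO cells, and 23 in treated WT cells, against 7 in untreated WT cells. As a share of the list this was 1.48, 1.81 and 1.68 times the untreated share in Rescue, KO and WT cells. It was the one window of 14 with a higher H3K27Ac share under treatment in all 3 genotypes, and 4 of 14 had a lower share in all 3. The window was picked from 14 after its values were seen, so no test is given. Rows with a global IDR of at most 0.05 were more numerous under treatment in KO and WT cells and fewer in Rescue cells, with 6, 3 and 9 in treated Rescue, KO and WT cells, against 7, 1 and 3 in untreated ones. The widest locus of the MHC, chr6:32046299-32055954, lies in this window and holds 29 rows from 16 lists, counted over all antibodies and IgG. H3K27Ac had rows there in 6 of 6 lists. Outside this locus the window still held more H3K27Ac rows in treated than in untreated cells of every genotype.

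IgG peaks, the measure of background, were few and uneven. The histone region and the MHC held 0 and 3 in treated Rescue cells, 1 and 2 in untreated Rescue cells, 3 and 14 in treated KO cells, 0 and 0 in untreated KO cells, 18 and 54 in treated WT cells and 0 and 5 in untreated WT cells. Treated WT cells thus gave 72 of the 100 IgG rows of the region. Those with a global IDR of at most 0.05 numbered 1, in the MHC of treated WT cells, beside 4.11% of that list and 3.68%, 1.05%, 1.22%, 4.19% and 0.946% of the lists of treated Rescue, untreated Rescue, treated KO, untreated KO and untreated WT cells. Pooled over genotypes, the treated lists had 92 of 11211 rows in the region (0.821%, Wilson 95% interval 0.670 to 1.01), 3.32 times the share of length, and the untreated lists 8 of 2275 (0.352%, 0.178 to 0.692), 1.42 times. Within the treated lists the region held 1.35 times its share of length in Rescue cells, 2.54 times in KO cells and 3.83 times in WT cells, whose list gave 7612 of the pooled rows. Within a list, the 2 replicate values of a peak correlated across the region with Spearman coefficients of 0.474 to 0.741 for H3K27Ac, 0.504 to 0.680 for RAD21 and 0.318 to 0.671 for PDS5A, across peaks that share a library and are not replicates.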

How the data were processed

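The submitters' processing notes name bedtools 2.30, Bowtie2 2.4.2, deepTools 3.5.1, FastQC, MACS2 2.2.7.1, SAMtools 1.16 and Trimmomatic, with GRCh37 as the genome. The order of these steps, the settings and control of MACS2 and the version of the IDR program are not given in the sources used here. The deposited lists give for each peak the −log10 p of each replicate, the lower of which is the joint value in all 24 lists, and a score, the −log10 of the global IDR. The lists hold peaks at any IDR.

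All rows of the region were kept. Shares were set against sequence length on chromosomes 1 to 22 and X, summed to the last peak. Tests were two-sided exact sign-flip permutation tests over 6 lists or 3 genotypes with Benjamini-Hochberg adjustment (Python 3.11.15, SciPy 1.17.1), checked on simulated data. The planned IgG tests could not be run, since 3 lists have 0 rows in a region. The 6 lists of an antibody come from related cells, so p-values measure only the spread between these lists. Members, lists of loci and windows were chosen with earlier results of these data known. Tests of width, IDR share, overlap and histone region against MHC, and the patterns over lists, were added after values were seen. Named loci are the 3 highest-ranked per antibody and region, the top changed peak with a global IDR of at most 0.05 per comparison, the fullest windows, the widest loci and those with most lists. Alternatives tried were IDR limits of 0.05 and 0.01, lists of equal length, peaks on IgG peaks left out, other borders, covered length, chromosome 6 alone as the background, either replicate's boundaries, a 50% overlap and 1 list or genotype left out.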

Additional observations from a re-analysis of the deposited data

How the results depend on the processing

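No paired analysis was possible because replicate numbers are lost where each list joins both replicates; treated and untreated lists were compared within genotype. The density of the region kept its direction and its exact p of 0.03125 under all 10 other settings for each of H3K27Ac, RAD21 and PDS5A. With 1 list left out, the exact sign-flip permutation test cannot go below p = 0.0625, so no call could stand. The leave-one-out log2 densities were 1.66 to 1.77 (H3K27Ac, histone), 1.47 to 1.52 (H3K27Ac, MHC), 2.01 to 2.07 (RAD21, histone), 1.82 to 1.89 (RAD21, MHC), 1.95 to 2.09 (PDS5A, histone), 1.995 to 2.05 (PDS5A, MHC). None of the osimertinib comparisons passed under any setting, and these means turned sign. Leaving out 1 genotype gave -0.12 to 0.14 (RAD21, MHC), -0.18 to 0.29 (PDS5A, histone) and -0.039 to 0.15 (PDS5A, MHC), with -0.027 without KO. Limiting the peaks to an IDR of at most 0.05 gave 0.068 (H3K27Ac, MHC). A limit of 0.01 gave 0.064 (H3K27Ac, MHC), 0.43 (RAD21, histone), -0.15 (RAD21, MHC), -0.41 (PDS5A, histone) and -0.041 (PDS5A, MHC), and lists of equal length -0.11 (PDS5A, histone). Log2 shares of KO against WT moved to -0.32 (RAD21 MHC), -0.36 (PDS5A MHC) at an IDR of 0.05, 0.35 (H3K27Ac MHC), -0.11 (RAD21 MHC), -0.28 (PDS5A MHC) at 0.01 and 0.18 (PDS5A histone) in lists of equal length. Those of Rescue against KO moved to 0.61 (H3K27Ac histone), 0.43 (RAD21 MHC), 0.60 (PDS5A MHC) at 0.05, 0.88 (H3K27Ac histone), 0.39 (H3K27Ac MHC), -0.30 (PDS5A histone), 0.39 (PDS5A MHC) at 0.01 and -0.43 (PDS5A histone) in lists of equal length. The mean percentage of first-list peaks with no counterpart moved to 42.5 (KO vs WT H3K27Ac), 65.2 (Rescue vs KO H3K27Ac), 64.6 (Rescue vs KO RAD21), 82.9 (Rescue vs KO PDS5A) at 0.05, 62.02 (KO vs WT H3K27Ac), 78.9 (Rescue vs KO H3K27Ac), 61.7 (Rescue vs KO RAD21), 0 (KO vs WT PDS5A), 90.1 (Rescue vs KO PDS5A) at 0.01 and 30.9 (KO vs WT H3K27Ac), 41.6 (Rescue vs KO RAD21) without peaks on IgG. An IDR limit shortens both lists of a pair, and whole-list percentages under these settings are not given, so nothing particular to the region is read from these values. Some rest on few rows: untreated KO cells had 4 PDS5A peaks in the region at 0.05. The share at an IDR of 0.01 or less was 10.6 (H3K27Ac histone), 14.8 (H3K27Ac MHC), 13.3 (RAD21 histone), 13.2 (RAD21 MHC)%. Overlap between antibodies, in percent, fell with the number of peaks kept, which the limit itself sets: 22.4 (H3K27Ac on RAD21 histone), 22.9 (H3K27Ac on RAD21 MHC), 19.3 (H3K27Ac on PDS5A histone), 22.8 (H3K27Ac on PDS5A MHC), 28.82 (RAD21 on H3K27Ac histone), 33.45 (RAD21 on H3K27Ac MHC), 42.3 (RAD21 on PDS5A histone), 54.02 (RAD21 on PDS5A MHC), 26.9 (PDS5A on H3K27Ac histone), 24.9 (PDS5A on H3K27Ac MHC), 65.2 (PDS5A on RAD21 histone), 48.6 (PDS5A on RAD21 MHC) at 0.05, 9.11 (H3K27Ac on RAD21 histone), 9.25 (H3K27Ac on RAD21 MHC), 4.59 (H3K27Ac on PDS5A histone), 9.87 (H3K27Ac on PDS5A MHC), 7.19 (RAD21 on H3K27Ac histone), 14.1 (RAD21 on H3K27Ac MHC), 35.9 (RAD21 on PDS5A histone), 45.6 (RAD21 on PDS5A MHC), 4.86 (PDS5A on H3K27Ac histone), 13.2 (PDS5A on H3K27Ac MHC), 48.96 (PDS5A on RAD21 histone), 43.97 (PDS5A on RAD21 MHC) at 0.01 and 51.2 (H3K27Ac on RAD21 histone), 36.04 (H3K27Ac on RAD21 MHC), 38.1 (H3K27Ac on PDS5A MHC), 47.8 (RAD21 on H3K27Ac MHC), 41.8 (PDS5A on H3K27Ac MHC), 61.01 (PDS5A on RAD21 MHC) without peaks on IgG. The cause of these shifts was not tested beyond that, and all other settings left these results within their spread. The depth of the libraries limits which peaks were called at all, and it is unknown.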
